A study of Sus scrofa with 6 samples.

Results

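PTGS2 and 9 further genes of the prostaglandin pathway were followed in RNA sequencing of neonatal pig Sertoli cells (NPSC), the nurse cells of the testis, with and without human complement. PTGS2 was chosen because its counts differed between these same libraries, and the other genes were chosen by symbol from the steps before and after it. Of the 10 symbols, 9 were found among the 25149 genes of the count files (PTGDS was not in the files used here), 8 had at least 1 count, and those 8 were tested.

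Prostaglandins are short-lived lipid signals made on demand. A phospholipase such as PLA2G4A frees arachidonic acid from membranes, a cyclooxygenase (PTGS1 or PTGS2) turns it into an unstable intermediate, and a terminal synthase makes the final product: PTGES, PTGES2 and PTGES3 make prostaglandin E2, and PTGIS makes prostacyclin. PTGS1 is usually expressed at a steady level, whereas PTGS2 is a classic inducible gene whose message appears quickly after serum or inflammatory stimuli and is short-lived. HPGD inactivates prostaglandins, and PTGER4 is a receptor for prostaglandin E2. Testicular cells, Sertoli cells among them, are known to make prostaglandins, and prostaglandin E2 is known to modulate immune cells.

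Both groups were wild-type Sertoli cells isolated from testes of neonatal Duroc-Landrace pigs, with testes of a litter pooled and 3 litters used that are not tied to the replicate numbers. Baseline NPSC (3 libraries) were plates to which only culture medium was added (all cells had been cultured with 10% fetal bovine serum), and complement NPSC (3 libraries) were plates given a mixture of equal parts of medium and pooled human AB serum with its complement preserved, for 90 min. The comparison asks which transcripts differ after a short exposure to xenogeneic complement. No library had heat-inactivated serum, so complement and the other components of human serum cannot be told apart. If the replicates are plates of the same cells, the p-values measure the spread between plates only.

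The libraries held 3641518 to 8371923 counts, with fewer in complement NPSC (3641518 to 6403606) than in baseline NPSC (6796183 to 8371923). Levels are given as CPM, counts scaled by the library size after TMM normalization, and between genes as CPM per kilobase of exon. Each library also held reads of 48 olfactory receptors, best known from the nose, at a density of 1.18 to 2.15 CPM per kilobase in baseline NPSC, against 4.01, 4.43 and 1.51 in complement NPSC replicates 1, 2 and 3. That density times a gene's exon length is called its expected background here. Some olfactory receptors are known to be expressed in testicular germ cells, whose summed markers were at 32.4 to 42.9 CPM in baseline NPSC and 32.8 to 46.3 CPM in complement NPSC, and the part of such expression in this density was not tested. Over all genes it came to 5.47% to 9.95% of the counts in baseline NPSC, against 18.5%, 20.5% and 6.98% in complement NPSC. Defining markers of Sertoli cells were detected (8 of 10 were in the files, each with counts), but so were those of Leydig cells (summed level 936 to 1139 CPM in baseline NPSC, 713 to 760 CPM in complement NPSC) and peritubular cells (2635 to 4036 and 2110 to 3968 CPM). Summed Sertoli markers were at 1414 to 1734 CPM in baseline NPSC and 937 to 1094 CPM in complement NPSC, with 0 of 8 past the thresholds used below in edgeR and 6 at an unadjusted p under 0.05, beside 15.2% of all tested genes. Of these 8 markers 4 were lower without overlap, beside 8.14% of all tested genes, while DHH had a log2 fold change of 0.63 and DMRT1 of 0.12. Summed macrophage markers (7 of 8 in the files) were at 123 to 163 CPM in baseline NPSC and 99.0 to 160 CPM in complement NPSC, so messages of other cell types were present, and their part in the values below was not tested.

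PTGS2 (ENSSSCG00000015579, chromosome 9, 140251518 to 140260362, minus strand, in the build of the files, which is not named) was higher in every complement NPSC library than in every baseline NPSC library. Its level was 50.0, 51.4 and 24.8 CPM in baseline NPSC replicates 1, 2 and 3 and 291, 442 and 725 CPM in complement NPSC. Behind these levels stood 345, 332 and 188 counts without human serum and 1308, 1852 and 4176 with it. The groups did not overlap, with the lowest complement NPSC level 5.66-fold above the highest baseline NPSC level and the highest 29.3-fold above the lowest. In bulk libraries, a change in the message per cell and a change in the share of cells that carry it cannot be told apart.

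The mean level of PTGS2 was 42.1 ± 15.0 CPM in baseline NPSC and 486 ± 220.5 CPM in complement NPSC (SD, n = 3 each), a ratio of means of 11.6. The log2 fold change fitted by edgeR was 3.53 with a standard error of 0.37 and a 95% interval from 2.75 to 4.32. Because PTGS2 was chosen for its change in these libraries, these are a description and no test is given. For scale, 18 of the 17512 tested genes (0.103%) passed an adjusted p under 0.05 with a log2 fold change beyond 1 in either direction, 0.0914% higher and 0.0114% lower in complement NPSC. CPM that did not overlap between the groups occurred in 17.1% of tested genes, 8.95% higher and 8.14% lower.

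Within complement NPSC, PTGS2 was also the most variable of the 8 tested genes. Its coefficient of variation was 45.4% there and 35.6% in baseline NPSC, and its highest complement NPSC level was 2.49-fold above its lowest. The library with the highest level, complement NPSC replicate 3, was the one whose olfactory receptor density lay nearest to that of baseline NPSC. Without that library the log2 fold change was 3.10. With the expected background subtracted from the counts it was 3.94, and over the 6 libraries the expected background of PTGS2 came to 3.42% of its counts.

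Ranked by CPM per kilobase among the 17512 tested genes, PTGS2 stood at 7170, 6927 and 10334 in the 3 baseline NPSC libraries and at 613, 340 and 273 in the 3 complement NPSC libraries. A message of middling abundance was therefore among the more abundant ones after 90 min in human serum. It still took only 0.0333%, 0.0509% and 0.0652% of all counts in complement NPSC, against 0.00508%, 0.00464% and 0.00225% in baseline NPSC.

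**Figure D1:**
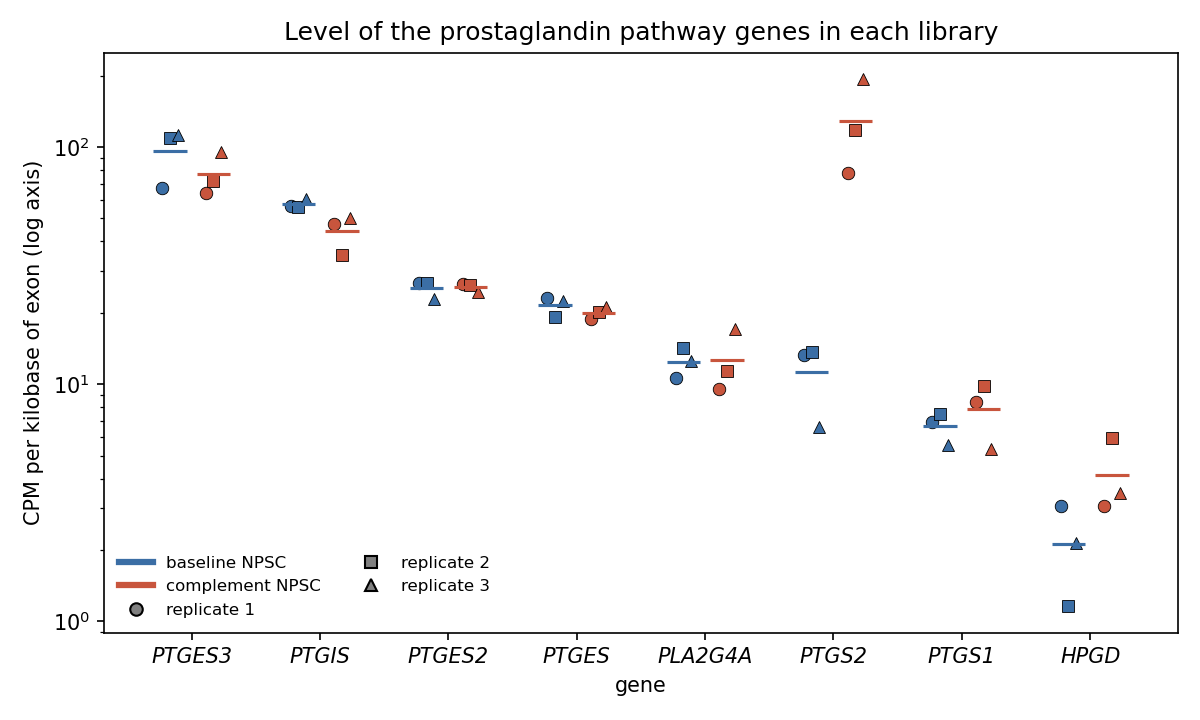
Level of each of the 8 pathway genes with counts, in CPM per kilobase of exon on a log axis, with 1 point per library in baseline NPSC and complement NPSC (3 each). The PTGS2 points of complement NPSC (77.5 to 193) lie above those of baseline NPSC (6.60 to 13.7), PTGIS points of complement NPSC lie below those of baseline NPSC, and for the other 6 genes the groups overlap.

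PTGS1, the other cyclooxygenase (ENSSSCG00000005533, chromosome 1, 294753878 to 294780705, plus strand), was at 24.2, 26.2 and 19.4 CPM in baseline NPSC and at 29.4, 34.4 and 18.6 CPM in complement NPSC. The groups overlapped, since complement NPSC replicate 3 held the lowest level of all 6 libraries. For PTGS1 the log2 fold change was 0.23 with a 95% interval from −0.29 to 0.76 (adjusted p = 0.604, by the quasi-likelihood test of edgeR, Benjamini-Hochberg adjusted across the whole table). The expected background came to 30.1% of the PTGS1 counts over the 6 libraries, and the log2 fold change was −0.24 with the olfactory receptor density as a covariate and 0.26 with that background subtracted. The fit on subtracted counts scaled the libraries anew. Its log2 fold changes were shifted by a median of 0.12 over genes.

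Per length, PTGS2 made up 65.8%, 64.6% and 54.3% of the summed level of both cyclooxygenases in baseline NPSC, against 90.2%, 92.3% and 97.3% in complement NPSC. The mean share was 61.6% ± 6.30 in baseline NPSC and 93.3% ± 3.65 in complement NPSC (SD, n = 3 each), given as a description because it contains PTGS2. In baseline NPSC the PTGS2 level was 1.92, 1.83 and 1.19 times that of PTGS1, so both isoforms contributed. In complement NPSC it was 9.22, 12.0 and 36.3 times that of PTGS1. With the expected background subtracted from both genes these ratios were 2.33, 2.01 and 1.25 in baseline NPSC, against 15.1, 19.0 and 52.6 in complement NPSC, and the shares were 64.1% ± 7.58 and 95.6% ± 2.24.

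PLA2G4A, the cytosolic phospholipase that supplies arachidonic acid to the cyclooxygenases (ENSSSCG00000023351, plus strand), lies near PTGS2 on chromosome 9, at 140460880 to 140623439. A stretch of 200.5 kb with 1 other gene, at 0 counts in all 6 libraries, separates the neighbours. The level of PLA2G4A was 31.0, 41.6 and 36.6 CPM in baseline NPSC and 28.0, 33.4 and 50.2 CPM in complement NPSC. The lowest and the highest of these 6 levels were both in complement NPSC. Its fitted log2 difference was 0.04 with a 95% interval from −0.45 to 0.52 (adjusted p = 0.939, edgeR). Without complement NPSC replicate 3, where both PTGS2 and PLA2G4A were highest, the log2 fold change of PLA2G4A was −0.28, and with the olfactory receptor density as a covariate it was 0.47 (adjusted p = 0.775, edgeR).

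The synthases that turn the cyclooxygenase product into prostaglandin E2 showed no change past the thresholds. PTGES, the membrane-bound form that is itself often inducible (ENSSSCG00000005688, chromosome 1, 303779651 to 303792393, minus strand), was at 27.1, 22.6 and 26.5 CPM in baseline NPSC and at 22.3, 23.6 and 24.8 CPM in complement NPSC. Its groups overlapped, and its log2 fold change was −0.11 with a 95% interval from −0.55 to 0.33 (adjusted p = 0.782, edgeR). That interval ends well under the threshold of 1.

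PTGES2 (ENSSSCG00000022655, chromosome 1, 302576514 to 302581314, minus strand), a membrane-associated form, had 30.6, 30.3 and 26.0 CPM in baseline NPSC and 30.3, 29.8 and 27.8 CPM in complement NPSC. Its coefficient of variation in complement NPSC, 4.50%, was the lowest of these 8 genes there, and the groups overlapped. The fitted difference of PTGES2 was 0.02 on the log2 scale, with a 95% interval from −0.40 to 0.43 (adjusted p = 0.971, edgeR).

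PTGES3, the cytosolic form, also known as the HSP90 co-chaperone p23 (ENSSSCG00000000406, chromosome 5, 23674710 to 23695919, minus strand), was the most abundant of the prostaglandin E2 synthases. Its level was 121, 196 and 203 CPM in baseline NPSC and 116, 129 and 170 CPM in complement NPSC. Baseline NPSC replicate 1 lay among the complement NPSC libraries, so the groups overlapped. On the log2 scale PTGES3 differed by −0.32 with a 95% interval from −0.84 to 0.20 (adjusted p = 0.485, edgeR). Summed per length, the 3 synthases were at 143 ± 22.8 CPM per kilobase in baseline NPSC and 123 ± 15.8 CPM per kilobase in complement NPSC (SD, n = 3 each).

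PTGIS, prostacyclin synthase (ENSSSCG00000007463, chromosome 17, 57474335 to 57521756, minus strand), was, of these 8 tested genes, the only one besides PTGS2 whose groups did not overlap. Its level was 303, 301 and 324 CPM in baseline NPSC and 256, 189 and 269 CPM in complement NPSC, so it was lower in each complement NPSC library. Such a separation downwards was common in these data, at 8.14% of tested genes. The log2 fold change of PTGIS was −0.38 with a 95% interval from −0.87 to 0.11 (adjusted p = 0.408, edgeR), and in DESeq2 the unadjusted p was 0.0413 and the adjusted p 0.343. Summed levels of Sertoli and Leydig cell markers were also lower in each complement NPSC library. Those of endothelial markers (402 to 589 CPM in baseline NPSC, 294 to 656 CPM in complement NPSC) overlapped. So did those of peritubular (2635 to 4036 and 2110 to 3968 CPM), macrophage and germ cell markers. The part of any of these cell types in the PTGIS levels was not tested.

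HPGD, the dehydrogenase that inactivates prostaglandins (ENSSSCG00000009699, chromosome 14, 16908630 to 16921262, plus strand), had few counts, with 17, 6 and 13 in baseline NPSC, against 11, 20 and 16 in complement NPSC. Its expected background was 72.3% of these counts over the 6 libraries and more than all of them in baseline NPSC replicate 2 and complement NPSC replicate 1. Its log2 fold change was 0.94 with a wide 95% interval from −0.17 to 2.06 (adjusted p = 0.380, edgeR). PTGER4 (ENSSSCG00000024439) had 0 counts in all 6 libraries. It is placed on an unplaced scaffold, and all 2451 genes on unplaced scaffolds had 0 counts in every library, so the 0 gives no limit on its level.

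Of the 7 tested genes besides PTGS2, 0 passed the thresholds in edgeR and 0 in DESeq2, where HPGD had no adjusted p. Of all genes with an adjusted p, 0.103% passed in edgeR and 0.333% in DESeq2. At an unadjusted p under 0.05 there were 0 of 7 in edgeR, where 15.2% of tested genes were under it, and 1 of 7 (PTGIS) in DESeq2, where 13.5% were. A test that misses the threshold does not show that a level stayed the same. The upper ends of the intervals exclude a log2 increase of 1 for PTGS1, PTGES, PTGES2, PTGES3, PTGIS and PLA2G4A, and the interval of HPGD does not.

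**Figure D2:**
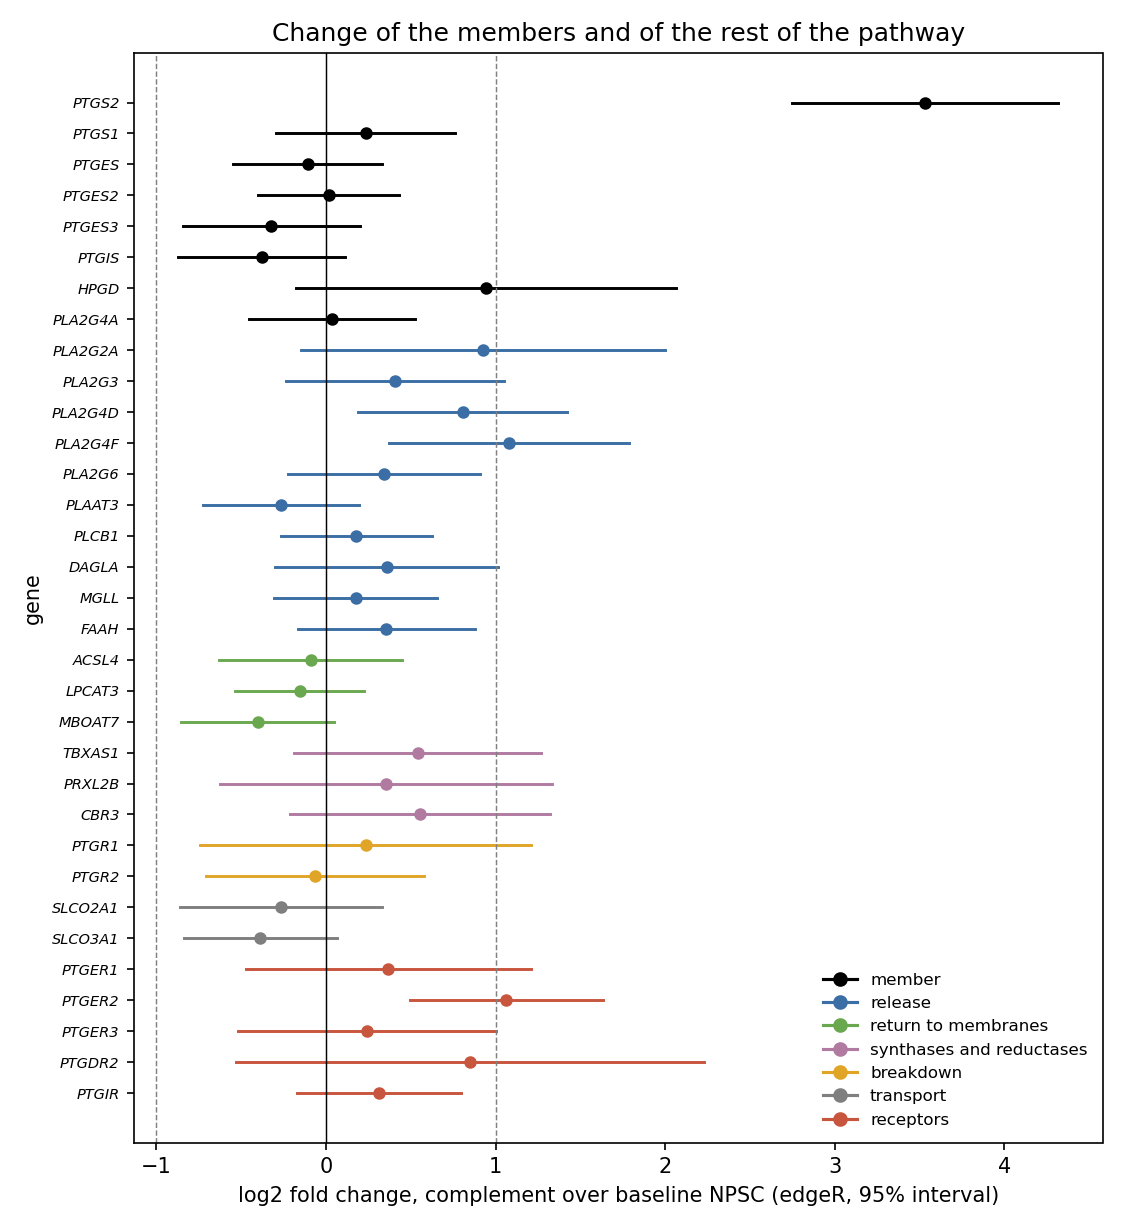
Log2 fold change of complement NPSC over baseline NPSC with its 95% interval from the edgeR fit, for the 8 pathway genes and 25 further genes of the pathway grouped by role, with dashed lines at the thresholds of 1 and −1. PTGS2 (3.53, interval 2.75 to 4.32) lies apart from the others, whose estimates run from −0.40 to 1.08.

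Per kilobase of exon, the order of the levels in baseline NPSC was PTGES3 (96.5 ± 25.4 CPM per kilobase), PTGIS (57.5 ± 2.35), PTGES2 (25.4 ± 2.29), PTGES (21.6 ± 2.08), PLA2G4A (12.4 ± 1.81), PTGS2 (11.2 ± 3.99), PTGS1 (6.66 ± 1.00) and HPGD (2.12 ± 0.956, SD, n = 3 each). The ranges of PTGES2 and PTGES overlapped, as did those of PLA2G4A and PTGS2 and those of PTGS2 and PTGS1. Within each baseline NPSC library, however, PTGES2 was above PTGES and PTGS2 was above PTGS1. PLA2G4A was above PTGS2 in replicates 2 and 3 and below it in replicate 1. The messages of these 4 terminal synthases (PTGES, PTGES2, PTGES3 and PTGIS) were thus more abundant in baseline NPSC than those of the cyclooxygenases, whereas the thromboxane synthase TBXAS1 (6.54 CPM per kilobase) and the prostaglandin D synthase HPGDS (0.931), both named after their values were seen, were not.

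In complement NPSC PTGS2 came first with 129 ± 58.7 CPM per kilobase, in a range that overlapped that of PTGES3 (77.1 ± 15.9). Within each complement NPSC library PTGS2 was above PTGES3. PTGIS (44.2 ± 7.99), PTGES2 (25.7 ± 1.16) and PTGES (20.04 ± 1.10) followed with ranges that did not overlap. PLA2G4A (12.7 ± 3.94), PTGS1 (7.86 ± 2.31) and HPGD (4.15 ± 1.56) came last, and the ranges of PLA2G4A and PTGS1 overlapped, as did those of PTGS1 and HPGD. Within each of these libraries PLA2G4A was above PTGS1 and PTGS1 above HPGD. Leaving out PTGS2, the order of the genes was the same in both groups. With 3 values against 3, taken as unpaired although the genes share libraries, an exact two-sided permutation test cannot give a p below 0.1. Non-overlap is therefore given in place of a test.

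The expected background bears on these genes unequally. It came to 2.36% of the counts of PTGES3, 4.02% of PTGIS, 8.31% of PTGES2, 10.03% of PTGES, 16.7% of PLA2G4A and 30.1% of PTGS1 over the 6 libraries. Across all tested genes the median was 20.7%. The levels of PTGS1 and HPGD are the ones that depend most on it. With it subtracted and the library scaling left unchanged, PTGS1 was at 5.07 CPM per kilobase in baseline NPSC and 4.84 in complement NPSC. The fit on subtracted counts scaled the libraries anew, so its log2 fold change for PTGS1 has the other sign.

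**Figure D3:**
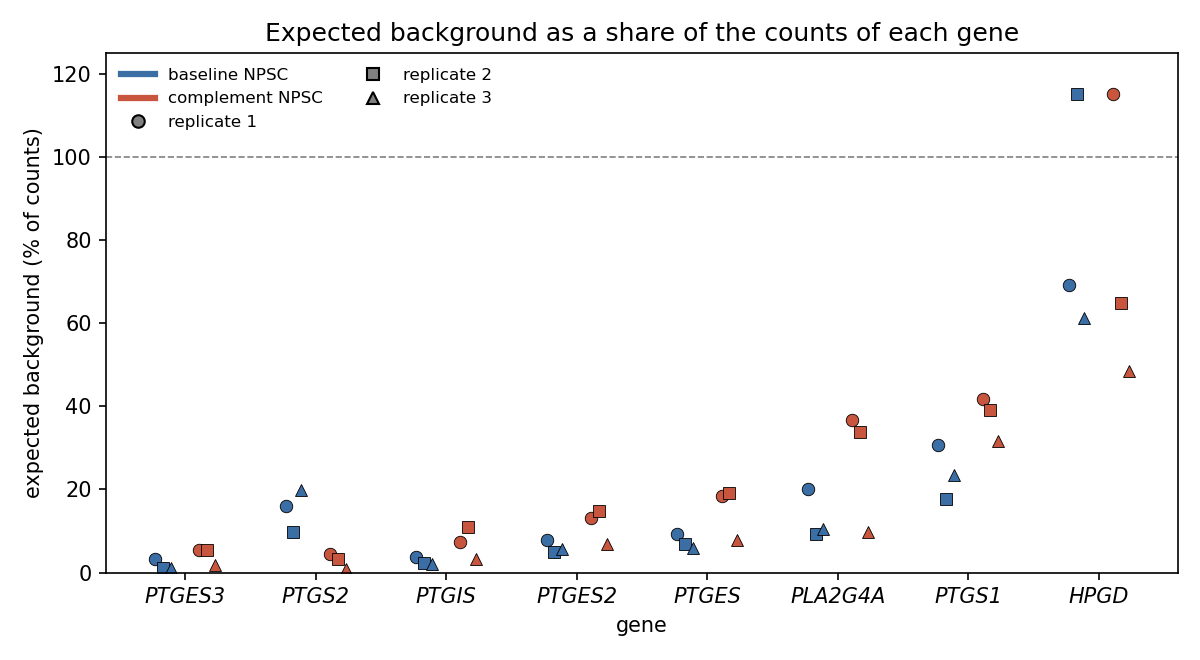
Expected background as a percentage of each gene's counts, with 1 point per library for the 8 pathway genes and a dashed line at 100%. HPGD crosses the line in baseline NPSC replicate 2 and complement NPSC replicate 1, while PTGS2 falls to 0.869% in complement NPSC replicate 3.

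Beyond these genes, a list of 45 further genes of the pathway had 28 in the files, of which 1 was at 0 counts and 25 were tested. In edgeR 0 of the 25 passed the thresholds. At an unadjusted p under 0.05 in edgeR 3 were higher and 0 were lower, against 15.2% of all tested genes in either direction. In DESeq2 0 passed, though some of the 25, PTGDR2 among them, had no adjusted p there. At an unadjusted p under 0.05 in DESeq2 there were 3, against 13.5% of all genes. The median log2 fold change of the 25 was 0.34, beside 0.02 over all tested genes. With the olfactory receptor density as a covariate the list's median was −0.06, whereas with the expected background subtracted it was 0.43. The subtraction shifted log2 fold changes by a median of 0.12 over all genes, so the 0.43 does not show a move particular to this list. The expected background came to a median of 23.2% of their counts, beside 20.7% over all tested genes.

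Of the receptors, 5 besides PTGER4 were in the files, and 0 of 5 passed the thresholds. PTGER2, which like PTGER4 binds prostaglandin E2 and raises cyclic AMP, was at 12.6, 10.2 and 9.49 CPM in baseline NPSC and at 16.7, 23.9 and 26.9 CPM in complement NPSC. Its groups did not overlap, a separation upwards that 8.95% of tested genes had. The log2 fold change of PTGER2 was 1.06 with a standard error of 0.27 and a 95% interval from 0.49 to 1.63 (unadjusted p = 0.0012, adjusted p = 0.261, edgeR). It passed the thresholds when baseline NPSC replicate 1 was left out (1.18, adjusted p = 0.0471, edgeR), where 1.42% of tested genes passed upwards, and under the other 5 omissions of 1 library it did not. The expected background of PTGER2 came to 39.0% of its counts over the 6 libraries and to 18.1% in complement NPSC replicate 3, where PTGER2 was highest.

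The other 4 receptors were not under an unadjusted p of 0.05 in edgeR. PTGIR, the prostacyclin receptor, was at 20.3 to 33.2 CPM in baseline NPSC and 26.9 to 36.0 CPM in complement NPSC, a log2 difference of 0.31 (SE 0.23). PTGER1 and PTGER3, the calcium-linked and the inhibitory receptor for prostaglandin E2, had log2 fold changes of 0.37 (SE 0.39) and 0.24 (SE 0.36), and PTGDR2, a receptor for prostaglandin D2, had 0.85 (SE 0.65). Expected background stood at 24.9% of the reads of PTGER1, 29.3% of PTGIR, 68.2% of PTGER3 and 465% of PTGDR2, so PTGDR2 had fewer counts than the background alone would give.

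Among the genes that release arachidonic acid, 12 of 21 were in the files and 10 were tested, with 0 past the thresholds. The phospholipases PLA2G4F and PLA2G4D, named after their values were seen, were the 2 of 10 at an unadjusted p under 0.05, both higher, as were 10.9% of all tested genes. PLA2G4F was at 19.3, 12.8 and 6.32 CPM in baseline NPSC and 28.9, 31.5 and 20.8 CPM in complement NPSC. On the log2 scale PLA2G4F differed by 1.08 (SE 0.33, adjusted p = 0.267, edgeR). PLA2G4D was at 24.4, 18.4 and 13.7 CPM in baseline NPSC and 33.6, 45.3 and 20.3 CPM in complement NPSC. On the log2 scale PLA2G4D differed by 0.81 (SE 0.29, adjusted p = 0.276, edgeR). In both genes the library with the lowest complement NPSC level was replicate 3, the reverse of PTGS2. With the olfactory receptor density as a covariate their log2 fold changes were 0.52 and 0.07, and with the expected background subtracted 1.42 and 1.10. PLA2G4F passed the thresholds without baseline NPSC replicate 1 (1.49, adjusted p = 0.0289, edgeR), where 1.42% of tested genes passed upwards. PLA2G4D passed them without complement NPSC replicate 3 (1.04, adjusted p = 0.0411, edgeR), where 5.43% of tested genes passed upwards.

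The most abundant of the further pathway genes act in the release of arachidonic acid from membranes or its return to them. ACSL4, which couples it to coenzyme A, was at 52.4 CPM per kilobase in baseline NPSC and 49.2 in complement NPSC. MBOAT7, which returns it to phosphatidylinositol, was at 45.2 and 34.1 CPM per kilobase, and PLAAT3, a phospholipase and acyltransferase, at 32.2 and 26.9. Their log2 fold changes were −0.09 (SE 0.25), −0.40 (SE 0.21) and −0.26 (SE 0.22), with adjusted p of 0.856, 0.357 and 0.512 in edgeR.

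Lipoxygenases draw on the same arachidonic acid, making leukotrienes and related products. Of a list of 15 genes of this branch, 11 were in the files and tested, and 0 passed the thresholds in edgeR or DESeq2. At an unadjusted p under 0.05 there were 0 of 11 in DESeq2, against 13.5% of all genes. In edgeR 2 (ALOX12B and ALOX15, named after their values were seen) were higher at an unadjusted p under 0.05, as 10.9% of all tested genes were (4.28% were lower). The median log2 fold change was 0.50, beside 0.02 over all tested genes, and it was 0.04 with the olfactory receptor density as a covariate and 0.71 with the expected background subtracted. ALOX12B differed by 0.70 on the log2 scale (SE 0.32, adjusted p = 0.319, edgeR) and ALOX15 by 0.49 (SE 0.23, adjusted p = 0.322, edgeR). Expected background made up a median of 21.0% of the reads of these genes.

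LTA4H, which makes leukotriene B4, and GPX4, which reduces lipid peroxides, were the most abundant of the branch, and ALOXE3, an epidermal lipoxygenase, was next only by the mean over all 6 libraries and in neither group alone. LTA4H was at 37.8 CPM per kilobase in baseline NPSC and 30.2 in complement NPSC (log2 fold change −0.32, SE 0.24). GPX4 was at 34.3 and 37.3 CPM per kilobase (0.12, SE 0.30), and ALOXE3 at 9.57 and 14.7 (0.61, SE 0.32).

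The PTGS2 message carries AU-rich elements that are bound by proteins which stabilise or destabilise it. Of 11 genes for such proteins 9 were in the files. One of these, ZFP36 (named after its values were seen), was at 0 counts in all 6 libraries, and 8 were tested. ZFP36 lies on chromosome 6, and its expected background was 15.4 to 28.9 counts per library. Of the 22698 genes on chromosomes, 839 were at 0 counts in all libraries, and whether the 0 of ZFP36 reflects its level was not tested. In edgeR 0 of 8 passed the thresholds and 0 were at an unadjusted p under 0.05, with the same counts in DESeq2. All 8 log2 fold changes were below 0, between −0.39 and −0.04 with a median of −0.28, but with upper-quartile factors that of ZFP36L1 was 0.056, and with the olfactory receptor density as a covariate the median was 0.09 (−0.13 with the expected background subtracted).

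RBM3, a cold-inducible RNA-binding protein, ZFP36L1, which promotes decay of AU-rich messages, and HNRNPD, which binds the same elements, were the most abundant by the mean over all 6 libraries, although in baseline NPSC CELF1 (83.4 CPM per kilobase, named after its values were seen) was above HNRNPD. Their levels in baseline NPSC were 205, 156 and 82.0 CPM per kilobase and in complement NPSC 157, 151 and 75.6 CPM per kilobase. Their log2 fold changes were −0.38 (SE 0.24), −0.04 (SE 0.28) and −0.11 (SE 0.24). These messages were all more abundant per length than PTGS2 was in baseline NPSC.

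The genes whose pattern over the 6 libraries was most like that of PTGS2 were sought among 9994 tested genes with a symbol and a mean level of at least 5 CPM. Likeness was the root mean square difference of log2 CPM, each gene taken relative to its own baseline mean. The 5 nearest were NR4A3 (0.57), KERA (1.03), EGR3 (1.15), EGR1 (1.16) and CXCL2 (1.30), with the next gene at 1.47 and a median of 2.58 over all candidates. Genes without a symbol were not compared, among them 4 of the 18 past the thresholds, so nearer genes may be missing. The measure uses the same libraries that chose PTGS2, so these are a description.

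NR4A3, an orphan nuclear receptor and immediate early gene, was the nearest by a wide margin. Its level was 25.1, 25.9 and 21.0 CPM in baseline NPSC and 176, 136 and 251 CPM in complement NPSC. EGR3 and EGR1, zinc finger transcription factors of the immediate early class, were at 8.70 to 15.8 CPM (EGR3) and 134 to 209 CPM (EGR1) in baseline NPSC and reached 30.3 to 63.9 CPM and 452 to 1163 CPM with human serum. CXCL2, a chemokine that attracts neutrophils, was at 40.2 to 65.3 CPM in baseline NPSC and 115 to 232 CPM in complement NPSC.

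All 5 genes were highest in complement NPSC replicate 3, as PTGS2 was. KERA, a proteoglycan of the corneal matrix, rests on few counts, with 8, 6 and 5 in baseline NPSC, against 39, 9 and 100 in complement NPSC. The expected background of KERA was more than its counts in each baseline NPSC library and in complement NPSC replicate 2. It reached the minimum mean of 5 CPM only through complement NPSC (0.916 CPM in baseline NPSC and 9.40 CPM in complement NPSC), so its likeness rests on a baseline within the background. The complement NPSC levels of NR4A3, KERA, EGR3 and CXCL2 were lowest in replicate 2, whereas PTGS2 and EGR1 were lowest in replicate 1.

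**Figure D4:**
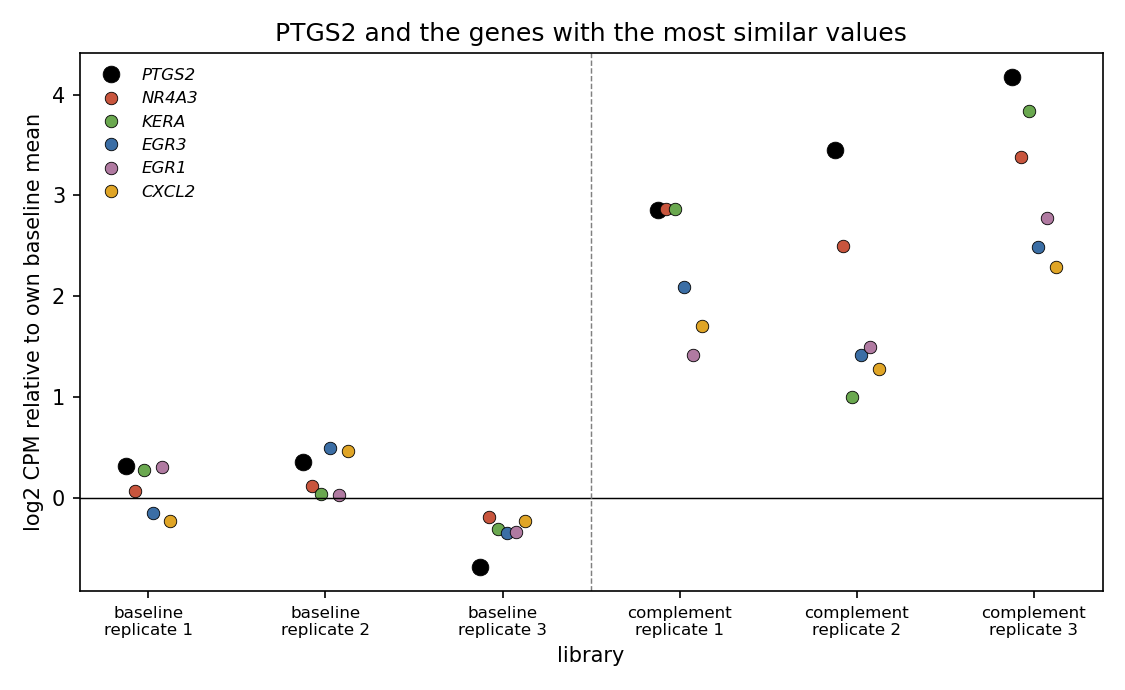
Log2 CPM of PTGS2 and of the 5 genes with the most similar pattern in each of the 6 libraries, each gene relative to its own baseline NPSC mean. All 6 genes are highest in complement NPSC replicate 3, and the points of NR4A3 (root mean square difference 0.57) lie nearest to those of PTGS2.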

How the data were processed

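The RNA of baseline NPSC and of complement NPSC was sequenced in 3 libraries per group. The authors deposited raw counts per gene, not normalized, with exon lengths and coordinates; their processing notes name Trimmomatic 0.36, STAR 2.5.2b and featureCounts of Subread 1.5.2. The genome build and strand setting are not given in the sources used here. None of the 9 genes overlaps another gene in the files. Symbols were matched through a table of gene names (11804 of 25149 identifiers).

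The members and lists were chosen with earlier results of these data known. Counts were fitted with edgeR 4.0.16 in R 4.3.3 (filterByExpr, TMM, quasi-likelihood F-test, Benjamini-Hochberg adjustment over 17512 tested genes), and the thresholds were 0.05 for the adjusted p and 1 for the size of the log2 fold change. Intervals are 95% intervals of that fit. The pathway genes named are all 9, all receptors in the files, and from each list the 3 genes with the highest CPM per kilobase and those past the thresholds. PLA2G4D, PLA2G4F, ALOX12B, ALOX15, ZFP36, CELF1, TBXAS1 and HPGDS were named after their values were seen. For likeness, log2 CPM had a prior count of 2. Alternatives were DESeq2 1.42.0 (Wald test), its size factors or upper-quartile factors in edgeR, TMM without the 20 genes with the most counts, other count filters, subtraction of the expected background or the olfactory receptor density as a covariate, a replicate block, and omission of each library. The fit was tested on simulated counts. Plots used matplotlib 3.10.9 in Python 3.11.15.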

Additional observations from a re-analysis of the deposited data

How the results depend on the processing

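The log2 fold change of PTGS2, a description because the gene was chosen on these libraries, ran from 3.10 to 3.94 over 15 alternatives (3.10 without complement NPSC replicate 3, and 3.80 at most with 1 library left out). Of the 7 other tested genes chosen with it, 0 were past the thresholds under any of them. The number of genes past the thresholds over all tested genes, 18 in the edgeR fit, was less stable. It was 53 in DESeq2, 31 with the expected background subtracted, 31 with no filter beyond 1 count, 58 with the olfactory receptor density as a covariate and 9 to 1063 with 1 library left out, namely 9 without baseline NPSC replicate 2, 298 without baseline NPSC replicate 1 and 1063 without complement NPSC replicate 3 (5.76% of the genes tested). The cause was not tested. The 12 to 19 genes under the remaining 3 omissions were within 1.5 times of 18.

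Replicate numbers were shared by the groups, and deviations from the group means correlated at 0.46, 0.03 and 0.48 over genes for numbers 1, 2 and 3, so the numbers were not taken to pair the libraries. Complement NPSC replicates 1 and 3 correlated best with their own number and replicate 2 with number 1. With the replicate number as a block, 728 genes (4.16%) were past the thresholds, the log2 fold change of PTGS2 was 3.48, and 2 further pathway genes passed, PTGER2 (1.05, adjusted p = 0.000266, edgeR) and PLA2G4F (1.16, adjusted p = 6.3e-06, edgeR).

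Of the 25 or 26 further pathway genes tested, 0 to 2 passed with 1 library left out. Without baseline NPSC replicate 1 there were 2 (PTGER2 and PLA2G4F), beside 1.64% of all tested genes. Without complement NPSC replicate 3 there were also 2 (PLA2G4D and HPGDS), beside 5.76% of all tested genes. HPGDS was not tested with all libraries. Its counts of 5, 2 and 5 in baseline NPSC, against 14, 10 and 5 in complement NPSC, had an expected background of 110%. Of the lipoxygenase branch 0 to 1 passed, the 1 being ALOX12B without baseline NPSC replicate 1, again beside 1.64% of all tested genes. Of the regulators of the PTGS2 message 0 passed under every alternative.

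Log2 fold changes that took the other sign were small in most cases. With the olfactory receptor density as a covariate they were −0.24 for PTGS1, −0.080 for PTGES2, 0.15 for PTGES3, 0.34 for ACSL4, 0.42 for HNRNPD, 0.19 for LTA4H, −0.16 for PTGER1, −0.063 for PTGIR and 0.44 for ZFP36L1. With the expected background subtracted they were 0.032 for PTGES, 0.12 for ACSL4, 0.11 for HNRNPD, −1.28 for PTGER3 and 0.19 for ZFP36L1. Upper-quartile factors gave 0.0019 for PTGES, 0.013 for ACSL4 and 0.056 for ZFP36L1. The median over genes of the shift in log2 fold change was 0.11 with those factors and 0.12 with the subtraction. DESeq2 gave −0.043 for PTGES2 and −0.016 for PLA2G4A, and no filter beyond 1 count gave −0.027 and −0.0028. With 1 library left out the log2 fold changes of PTGES2 ran from −0.073 to 0.046, of PLA2G4A from −0.28 to 0.21, of ACSL4 from −0.36 to 0.042, of GPX4 from −0.019 to 0.32, of HNRNPD from −0.41 to 0.024 and of ZFP36L1 from −0.37 to 0.10.

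Levels per length moved by more than their spread in a few genes. With the expected background subtracted and the library scaling left unchanged, PTGS1 was at 5.07 CPM per kilobase in baseline NPSC and 4.84 in complement NPSC, HPGD at 0.592 and 1.29, and in complement NPSC PTGES was at 17.03 and PTGES2 at 22.7. Scaled by the library total, PTGES was at 21.3 and PTGES2 at 27.5 CPM per kilobase in complement NPSC and PTGIS at 54.1 in baseline NPSC. HPGD could not be fitted with the background subtracted or with at least 10 counts required in every library. Per library the expected background came to 48.5% to 115% of the counts of HPGD, 41.1% to 102% of PTGER3 and 343% to 874% of PTGDR2, which limits what their levels show. For PTGDR2 it exceeded the counts in every library, so the estimate overstated the background of that gene. How far it does so for other genes was not tested.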
